A study of Mus musculus with 6 samples.

Results

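The chemokine ligands measured here were the gene entries whose symbol is Ccl or Cxcl with a number, together with Cx3cl1 and Xcl1. Of 23700 gene entries 50 met this rule, and they carried 39 symbols. Of these symbols 11 were listed at 0 FPKM in every library at each of their entries, 17 others stayed below a mean of 1 FPKM, and 11 were expressed at a mean of at least 1 FPKM and were tested. FPKM counts sequenced fragments relative to transcript length and to library size, so levels of different genes can be set side by side on it.

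RNA was taken from IDG-SW3 cells, a mouse bone cell line derived from long bones of animals carrying green fluorescent protein driven by the Dmp1 promoter and a temperature-sensitive T antigen. The T antigen is switched on with interferon gamma while the cells are expanded, and every culture here had that history. Differentiation lasted 28 days in medium with 4 mM β-glycerophosphate plus 50 µg/ml ascorbic acid. Cultures then received PBS (Control, n = 3) or 50 nM bovine PTH(1-34), the active fragment of parathyroid hormone (PTH, n = 3), for 24 hours. The cells are 1 immortalized line. Nothing in the labels tells whether replicates were separate cultures, and p-values cover only the spread among these wells, which may be technical.

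The numbers of fragments implied by the deposited error bounds were 13936555 to 19015406 in the Control libraries and 22437657 to 24442614 in the PTH libraries. Of all 11864 entries tested, 73.8% were called different between the groups, 50.3% higher and 23.5% lower with PTH, and the median change of all of them was 0.15 on the log2 scale. Under median-of-ratios rescaling the split was 4459 higher and 3741 lower and the median was 0.03, so small rises depend on the scaling. The osteocyte genes Dmp1, Sost and Mepe were expressed in Control at means of 827, 53.3 and 208 FPKM, and at 3.64, 0.09 and 1.61 FPKM with PTH. Of 14 markers of blood cells and macrophages 9 were under the filter, among them Emr1, Tyrobp and Cd3e at 0 in every library and Ptprc at means of 0.0052 FPKM in Control and 0 with PTH. The other 5 were Lyz2 at means of 11.3 and 4.36 FPKM, Fcer1g at 5.46 and 3.49, S100a8 at 2.10 and 2.20, Cd14 at 1.36 and 4.01 and Cd68 at 1.02 and 2.20. Summed over the list the level was 20.3 to 22.9 FPKM in Control and 15.8 to 18.0 FPKM with PTH, and the part of these genes in the ligand changes was not tested.

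Chemokines are small secreted proteins that bind heptahelical receptors and direct the movement of cells along a gradient. They are named by the spacing of their first cysteines (CC, CXC, CX3C and XC). CXC members with the residues Glu-Leu-Arg before the first cysteine attract neutrophils through Cxcr2, and CC members such as Ccl2 and Ccl7 attract monocytes through Ccr2. In bone marrow, Cxcl12 from stromal and osteoblast-lineage cells retains haematopoietic stem and progenitor cells through Cxcr4, and Ccl2 has been described as a product of osteoblastic cells given PTH.

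The DNA before the start sites is shown for Cxcl1, Cxcl12 and Cxcl14, the CXC ligands with a window that changed by more than 2-fold, and for Cxcl2 and Cxcl3, neighbours of Cxcl1. The 120 bases before the annotated start were taken from RefSeq on GRCm38.p6, and capitals mark matches to the NF-kappaB consensus or to the cAMP response element half-site TGACG, on either strand.
Cxcl1 (chr5:90891125-90891244, plus strand): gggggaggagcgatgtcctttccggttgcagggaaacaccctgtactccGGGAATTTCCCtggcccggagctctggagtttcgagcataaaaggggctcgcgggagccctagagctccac
Cxcl2 (chr5:90903779-90903898, plus strand): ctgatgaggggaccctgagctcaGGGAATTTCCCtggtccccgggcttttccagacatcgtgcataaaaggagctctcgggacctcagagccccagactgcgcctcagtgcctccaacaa
Cxcl3 (chr5:90785981-90786100, plus strand): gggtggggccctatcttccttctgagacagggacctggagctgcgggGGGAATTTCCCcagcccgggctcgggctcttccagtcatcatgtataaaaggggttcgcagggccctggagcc
Cxcl12 (chr6:117168415-117168534, plus strand): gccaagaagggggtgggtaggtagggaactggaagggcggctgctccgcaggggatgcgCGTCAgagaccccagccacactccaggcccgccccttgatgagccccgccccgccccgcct
Cxcl14 (chr13:56296552-56296671, minus strand): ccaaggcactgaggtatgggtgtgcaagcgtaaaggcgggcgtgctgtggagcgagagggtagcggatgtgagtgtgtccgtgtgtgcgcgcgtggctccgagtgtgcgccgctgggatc

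The same 11 letters, GGGAATTTCCC, stood in capitals before Cxcl1, Cxcl2 and Cxcl3. This stretch, which was singled out after the windows had been read, occurred in either orientation within 250 bases before the start in 14 of 32851 RefSeq windows, or 0.0426%. The NF-kappaB consensus itself was found in 3.90% of all windows and in 6 of the 27 ligands with a window, namely Ccl9, Ccl20, Cxcl1, Cxcl2, Cxcl3 and Cxcl10. Of these Ccl20 was listed at 0, and Cxcl10 did not separate the groups, on 9 Control and 13 PTH fragments. At such counts neither gene could show whether a match goes with a rise, which was not tested. The half-site TGACG, whose letters are also part of the full element, was present in 17.8% of windows, and in those of Cxcl1, Cxcl12, Ccl27a and Ccl27b. The full element TGACGTCA was found in 1.55% of windows and in none of the ligands. TGANTCA, the AP-1 motif, was found in 6.75% of windows and before Ccl9, Ccl27a, Ccl27b and Cxcl10, and the TATA motif TATAAA was found in 12.4% of windows and in 10 ligands. Ligands were counted by symbol, with a match in any of their windows, while the shares are per window. The counts and the shares are thus not on the same basis. A match describes the letters only. Windows were used for 7 of the 11 tested ligands; for Ccl2, Ccl7, Cxcl5 and Cxcl16 none was used here.

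PTH treatment changed 9 of the 11 tested ligands (limma, adjusted p below 0.05 over all entries tested). Of these 8 rose and Cxcl12 fell, against 73.8% of all entries called and 50.3% called higher. With a difference of at least 2-fold the counts were 5 higher and 1 lower of 11, where 9.26% of all entries tested passed, 4.43% higher and 4.84% lower. The median change of the 11 was 0.52 on the log2(FPKM + 1) scale, beside 0.15 over all entries tested. The groups did not overlap for 8 of the 11, 7 of them higher with PTH, and for 78.2% of all entries tested, 53.2% being higher. Cxcl1 and Ccl9 had Control means below 1 FPKM and passed the filter only through the PTH libraries, so they could pass it only by being higher there. The other 9 had a Control mean of at least 1 FPKM.

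**Figure D1:**
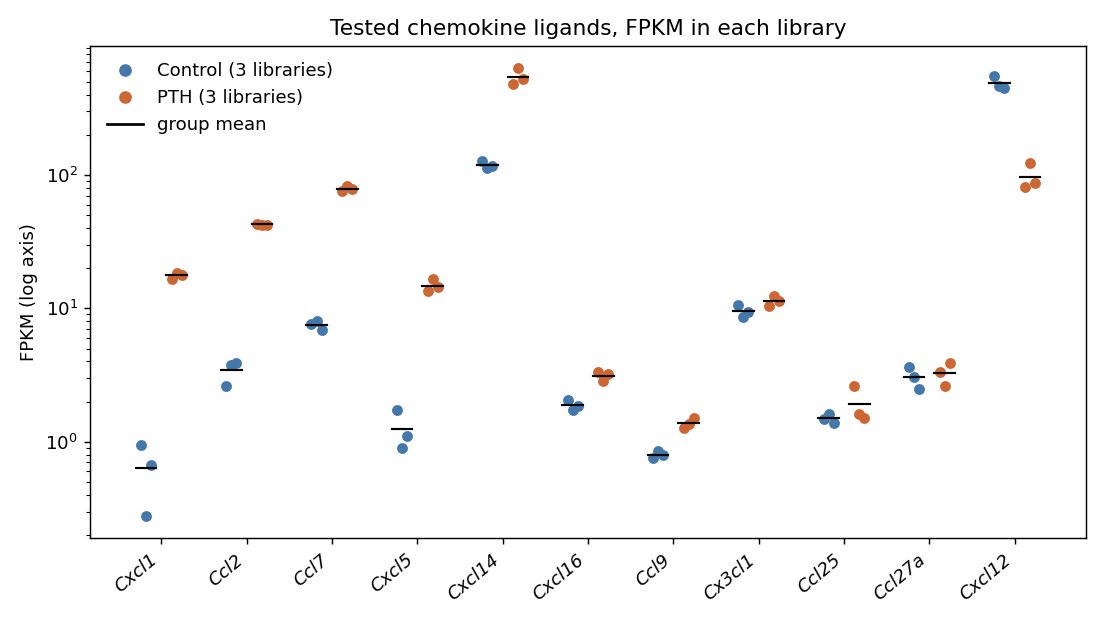
FPKM of the 11 tested chemokine ligands (x axis) on a log axis, with 1 point for each of 3 Control and 3 PTH libraries and a bar at the group mean. The PTH points of Cxcl1, Ccl2, Ccl7, Cxcl5 and Cxcl14 stand far above the Control points, those of Cxcl12 stand below, and Cx3cl1, Ccl25 and Ccl27a overlap.

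Among the monocyte-attracting CC ligands, Ccl2, also known as monocyte chemoattractant protein, was at 2.61, 3.79 and 3.91 FPKM in Control and at 42.8, 42.4 and 42.5 FPKM with PTH. The lowest PTH library was 10.8-fold above the highest Control library, and the PTH libraries were nearly level with each other. The difference was 3.31 ± 0.11 (SE) on the log2(FPKM + 1) scale (limma, adjusted p = 9.04e-07) and the mean FPKM rose 12.4-fold. It rested on 40, 44 and 57 implied fragments in Control and 746 to 805 with PTH. Scaled to depth, the ratio of fragments was 12.5 with an exact 95% interval of 10.6 to 14.95, which covers counting error only.

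Ccl7, the neighbouring gene and another ligand of Ccr2, was at 7.60, 8.02 and 6.87 FPKM in Control and at 76.0, 83.1 and 78.3 FPKM with PTH. Its level was above that of Ccl2 in both groups and its rise was of like size. The difference was 3.24 ± 0.06 (limma, adjusted p = 6.60e-08), or 10.5-fold in mean FPKM.

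Ccl8, the other gene of that stretch that separated the groups, encodes a further monocyte attractant. It was at 0.13, 0 and 0 FPKM in Control and at 0.67, 1.09 and 0.52 FPKM with PTH, under the filter, and 1 Control fragment stood against 21. The fragment ratio was 16.0, with an exact 95% interval from 2.58 to 663, so the size of this difference was hardly fixed. Ccl5, an attractant of T cells and monocytes, was listed at 0 in every Control library and at 0.63, 0.41 and 0.29 FPKM with PTH. Against the level that 3 fragments over the whole Control group would give, 0.134 FPKM, its PTH mean of 0.444 FPKM was 3.31-fold higher. That ratio leaves out the counting error of the 13 PTH fragments.

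Ccl9, a mouse ligand of Ccr1 made by cells of the osteoclast lineage among others, was at 0.75, 0.85 and 0.79 FPKM in Control and at 1.28, 1.36 and 1.499 FPKM with PTH. The groups did not overlap, but the step was small beside those of Ccl2 and Ccl7. The difference was 0.40 ± 0.06 (limma, adjusted p = 0.00124), or 1.72-fold in mean FPKM.

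Of the 5 neutrophil-attracting CXC ligands that meet the symbol rule, Cxcl1 and Cxcl5 were tested and both rose. Cxcl2, Cxcl3 and Cxcl15 were under the filter. Ppbp, a CXC gene that lies among them under another symbol, is not in this count or in the sum below. Cxcl1, known in mouse as KC, was at 0.95, 0.28 and 0.67 FPKM in Control and at 16.7, 18.5 and 17.8 FPKM with PTH. The 3 Control values rested on 18, 4 and 12 fragments, so the Control level was loosely fixed, while the PTH values rested on 361 to 418. The difference was 3.54 ± 0.15 (limma, adjusted p = 2.02e-06), and the fragment ratio was 26.7 with an exact 95% interval of 19.0 to 38.8.

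Cxcl5, also called LIX in mouse and another neutrophil attractant, was at 1.74, 0.89 and 1.11 FPKM in Control and at 13.6, 16.6 and 14.4 FPKM with PTH. No PTH library came near a Control library. The difference was 2.83 ± 0.14 (limma, adjusted p = 4.87e-06), or 11.9-fold in mean FPKM, and its fragments numbered 25 to 64 in Control and 569 to 717 with PTH.

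Cxcl3 and Cxcl2, both ligands of Cxcr2, were far lower. Cxcl3 was at 0, 0.06 and 0 FPKM in Control and at 0.56, 0.29 and 0.31 FPKM with PTH, on 1 fragment against 28. Cxcl2 was listed at 0 in Control and at 0.08, 0.04 and 0.07 FPKM with PTH, on 5 fragments. Its PTH mean of 0.063 FPKM was 1.27-fold the Control limit of 0.0496 FPKM. That ratio leaves out the counting error of the 5 PTH fragments, so little can be said of the difference or its size. Although Cxcl1, Cxcl2 and Cxcl3 have the same 11 letters before their start sites, their PTH means ran from 0.063 to 17.7 FPKM. Cxcl15, a lung-expressed member known from mouse, stayed at or below 0.0444 FPKM in every library, and the groups overlapped.

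Summed over Cxcl1, Cxcl2, Cxcl3, Cxcl5 and Cxcl15, the level was 1.91 ± 0.74 FPKM (SD, n = 3) in Control and 33.0 ± 2.24 FPKM (SD, n = 3) with PTH. Nearly all of it was Cxcl1 and Cxcl5.

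Cxcl12, the retention factor for haematopoietic cells, was the only tested ligand that fell. It was at 551, 461 and 449.7 FPKM in Control and at 80.8, 122 and 86.8 FPKM with PTH. The lowest Control library was 3.69-fold above the highest PTH library, which was PTH replicate 2. The difference was -2.34 ± 0.16 (limma, adjusted p = 2.21e-05), or 5.05-fold lower in mean FPKM, and over all alternatives tried it ran from -2.52 to -2.23. Between 3206 and 19482 fragments stood behind each value, so counting error was small beside the spread between samples.

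Marker lists of other cell types and of the bone lineage itself are given beside Cxcl12. As the background, 23.5% of all entries were called lower and 50.3% higher. All 6 tested adipocyte markers fell, among them Lpl at -2.94, Fabp4 at -2.85, Plin1 at -2.61 and Cfd at -1.90 (limma, each called). Over the 7 listed markers the summed level was 532 to 752 FPKM in Control and 72.6 to 151 FPKM with PTH. Lep was the marker under the filter. Of 11 osteocyte and osteoblast markers 9 fell and none rose (2 rose under quantile normalization), with Dmp1 at -7.48, Mepe at -6.33, Sost at -5.63 and Ibsp at -3.75. Of 7 markers of the reticular stromal cells that make Cxcl12 in marrow, 4 rose and 3 fell, the largest changes being Pdgfrb at 1.01, Ebf3 at -0.70, Kitl at -0.68 and Pdgfra at 0.65. The part of these genes in the fall of Cxcl12 was not tested, and in RNA of whole cultures fewer cells of a type and less RNA per cell cannot be told apart.

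Cxcl14, a CXC ligand expressed in epithelia and fibroblasts, moved the other way from a high base. It was at 127, 112 and 117 FPKM in Control and at 479.9, 630.1 and 520.2 FPKM with PTH. No library of 1 group came near the other group, and PTH replicate 2 was the highest. The difference was 2.17 ± 0.10 (limma, adjusted p = 3.84e-06), or 4.57-fold in mean FPKM.

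The chemokine ligand with the highest level was thus Cxcl12 in each Control library and Cxcl14 in each PTH library. The ratio of Cxcl12 to Cxcl14 was 4.09 ± 0.24 (SD, n = 3) in Control and 0.176 ± 0.0150 (SD, n = 3) with PTH. Cxcl12 made up 76.4% ± 1.03 (SD, n = 3) of all ligand FPKM in Control and 11.7% ± 1.15 (SD, n = 3) with PTH, and Cxcl14 made up 18.7% ± 0.87 (SD, n = 3) and 66.3% ± 0.97 (SD, n = 3). The sum over all 50 entries was 638 ± 64.6 FPKM (SD, n = 3) in Control and 819 ± 105 FPKM (SD, n = 3) with PTH. The total therefore moved far less than its make-up. Without Cxcl12 and Cxcl14 the sum went from 31.4 ± 1.94 to 178.7 ± 5.41 FPKM (SD, n = 3 in each group).

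**Figure D2:**
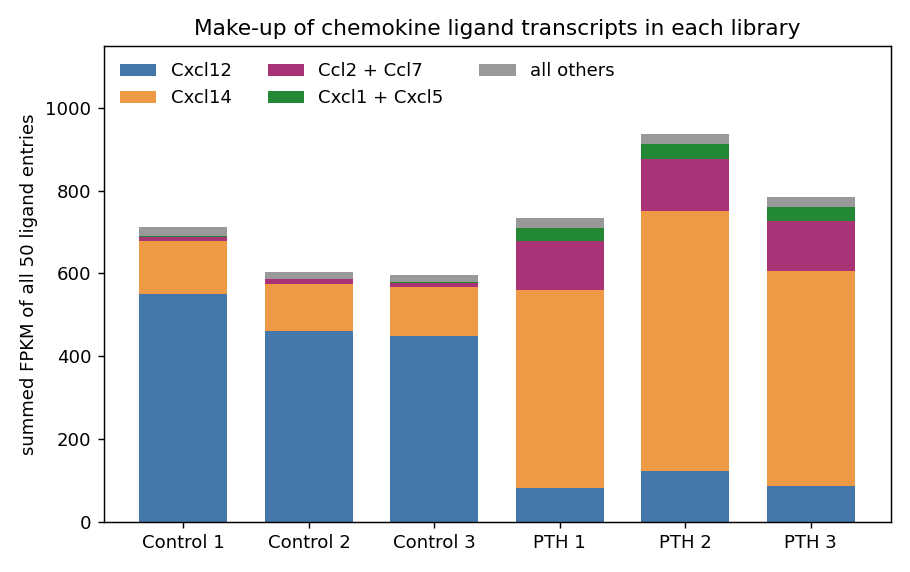
Summed FPKM of all 50 chemokine ligand entries (y axis) in each of the 6 libraries (x axis), stacked by gene. Cxcl12 fills most of each Control bar and Cxcl14 most of each PTH bar, and the bands of Ccl2 with Ccl7 and of Cxcl1 with Cxcl5 are visible mainly with PTH.

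Cxcl16, a transmembrane ligand of Cxcr6 that can be shed from the cell surface, was at 2.05, 1.74 and 1.84 FPKM in Control and at 3.34, 2.87 and 3.20 FPKM with PTH. The groups did not overlap. The difference was 0.52 ± 0.07 (limma, adjusted p = 0.000424), or 1.67-fold in mean FPKM. Its entry overlaps the end of Zmynd15, which had means of 0.117 FPKM in Control and 0.175 FPKM with PTH.

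Cx3cl1, fractalkine, the other membrane-anchored ligand, was at 10.6, 8.66 and 9.34 FPKM in Control and at 10.4, 12.4 and 11.4 FPKM with PTH. Here the groups overlapped, since PTH replicate 1 was below Control replicate 1. The difference of 0.24 ± 0.09 was called (limma, adjusted p = 0.0410), but it is near the median change of all entries, and the call was lost in 9 of 14 alternatives, over which the adjusted p ran from 0.0154 to 0.261. The call did not hold without Control replicate 2 (adjusted p = 0.116), Control replicate 3 (0.0986), PTH replicate 2 (0.118) or PTH replicate 3 (0.0898).

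For 2 ligands no difference was detected. Ccl25, which guides thymocytes and gut-homing T cells, was at 1.49, 1.63 and 1.38 FPKM in Control and at 2.60, 1.62 and 1.51 FPKM with PTH. Only PTH replicate 1 stood above the Control range. The difference was 0.20 with a 95% interval of -0.14 to 0.54 (limma, adjusted p = 0.235).

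Ccl27a, related to a skin ligand of Ccr10, was at 3.64, 3.05 and 2.48 FPKM in Control and at 3.35, 2.64 and 3.92 FPKM with PTH. The 6 libraries were intermixed. The difference was 0.08 with a 95% interval of -0.26 to 0.42 (limma, adjusted p = 0.606), and its level is uncertain because near-identical Ccl27b copies can take fragments from it and its entry touches that of Il11ra1.

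**Figure D3:**
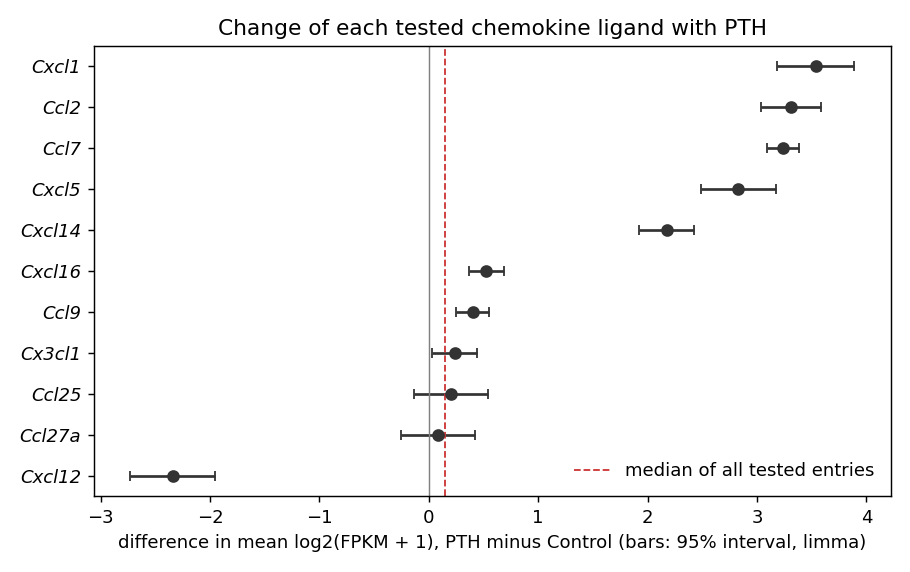
Difference in mean log2(FPKM + 1), PTH minus Control, for each tested ligand (y axis), with 95% intervals from limma and a dashed line at the median of all tested entries, 0.15. Cxcl1, Ccl2, Ccl7, Cxcl5 and Cxcl14 lie between 2.17 and 3.54, Cxcl12 lies at -2.34, and the intervals of Ccl25 and Ccl27a include 0.

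In order of level, Control cells had Cxcl12 first and Cxcl14 second, followed by Cx3cl1, Ccl7, Ccl2, Ccl27a, Cxcl16, Ccl25, Cxcl5, Ccl9 and Cxcl1. The libraries of neighbours in that order overlapped for Ccl2 with Ccl27a, Ccl25 with Cxcl5, and Ccl9 with Cxcl1. With PTH the order was Cxcl14, Cxcl12, Ccl7, Ccl2, Cxcl1, Cxcl5, Cx3cl1, Ccl27a, Cxcl16, Ccl25 and Ccl9, with overlap between Cxcl12 and Ccl7 and between Ccl27a and Cxcl16. Cxcl1 stood last in Control and above Cx3cl1 with PTH.

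Several ligands lie side by side in the genome, and their values are given by stretch as a description, with no test. On mm9, the build of the deposited files, Cxcl5, Ppbp, Pf4, Cxcl3, Cxcl15, Cxcl1 and Cxcl2 are the 7 entries of chr5:91188325-91334964. In 6 of the 7 every PTH library was above every Control library, Cxcl15 being the exception. Over all entries above 0 in at least 1 library, tested or not, 38.7% had every PTH library above every Control library. Ppbp and Pf4, platelet chemokines that carry other symbols and are not counted among the 50, had means of 0.0545 and 0.106 FPKM in Control and 1.39 and 0.61 FPKM with PTH. They were under the filter at 110 and 21 PTH fragments, and 3 in Control for each.

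Further along chromosome 5, Cxcl9, Cxcl10, Cxcl11 and Cxcl13 showed no rise. Cxcl9, an interferon-induced ligand of Cxcr3, was at 0.32, 0.15 and 0.20 FPKM in Control and at 0.07, 0.15 and 0.11 FPKM with PTH, each PTH library below each Control library, the nearest pair being 0.154 and 0.150 FPKM. Cxcl10 and Cxcl11, which lie within the entry of Art3, overlapped between the groups at 0.347 FPKM or less, and Cxcl13, a B cell attractant, was listed at 0.

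On chromosome 11, Ccl2, Ccl7 and Ccl8 were higher in every PTH library among the 6 entries of chr11:81849079-81993314, while Ccl11, Ccl12 and Ccl1 between and beside them were not. In the second stretch of that chromosome Ccl5 and Ccl9, 2 of 5, were higher in every PTH library, and Ccl6, Ccl3 and Ccl4 were not. The share of 38.7% is over entries above 0 in at least 1 library. Ccl1, Ccl12 and Ccl3 were listed at 0 in every library, so the counts of these 2 stretches are not on the same basis. On chromosome 8, Ccl22, Cx3cl1 and Ccl17 all overlapped. Neighbours differed in level by orders of magnitude even where they moved the same way.

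**Figure D4:**
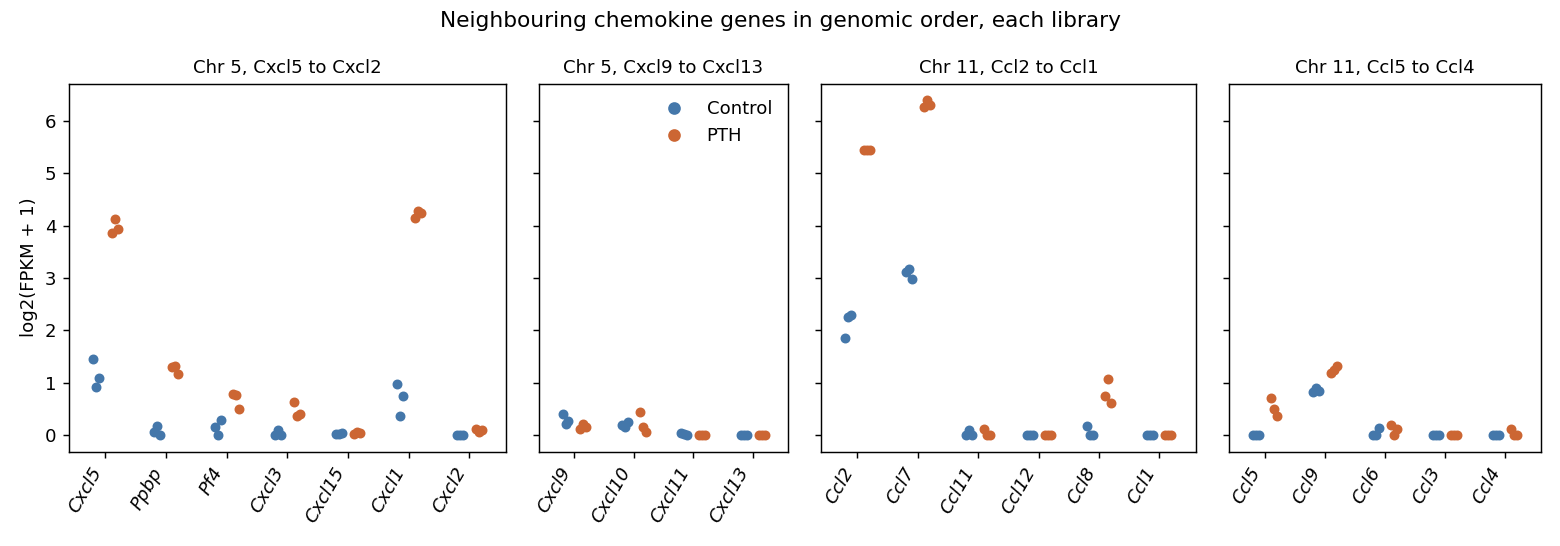
log2(FPKM + 1) of neighbouring chemokine genes in each of 3 Control and 3 PTH libraries (points), in genomic order along the x axis of each of 4 panels. In the first panel 6 of 7 genes have every PTH point above every Control point, in the second none does, in the third Ccl2, Ccl7 and Ccl8 do, and in the fourth Ccl5 and Ccl9 do.

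The 39 entries with a mean under 1 FPKM, 28 symbols in all, were not tested. Their highest mean was 0.401 FPKM, that of Ccl8. Besides Ccl5, Ccl8, Cxcl2 and Cxcl3, the one that was higher in every PTH library was Cxcl17, a mucosal chemokine-like protein, listed at 0 in Control and at 0.25, 0.18 and 0.40 FPKM with PTH. Its PTH mean was 3.56-fold the Control limit of 0.0776 FPKM, a ratio that leaves out the counting error of the 14 PTH fragments. The Cxcl17 entry overlaps that of 4732471J01Rik, which had means of 0.144 and 0.149 FPKM. These 5 were also the untested members that were called when no filter was used, which raised the ligands called to 13 of the 31 entries above 0, where 55.3% of all such entries were called. Of the 31, 12 were called higher, beside 34.9% of all such entries.

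The others detected in at least 1 library overlapped between the groups, except Cxcl9, which was not tested and was not called when no filter was used (limma, adjusted p = 0.0888). Ccl17, Ccl27b, Cxcl10 and Cxcl9 reached at most 0.533 FPKM, and Ccl4, Ccl6, Ccl11, Ccl19, Ccl24, Ccl28, Cxcl11 and Cxcl15 at most 0.144 FPKM. Ccl19, a ligand of Ccr7, was listed with the same values at 2 entries, which cannot be told apart. Listed at 0 in every library were Ccl1, Ccl3, Ccl12, Ccl20, Ccl21a, Ccl21b, Ccl21c, Ccl22, Ccl26, Cxcl13 and Xcl1. Of their entries 8, all of Ccl21a and Ccl21b, had the status LOWDATA, which Cufflinks gives where fragments are too few or the locus too complex.

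The signalling receptors for these ligands were nearly silent in the same cells. None of 19 chemokine receptors reached a mean of 1 FPKM, and the highest value in any library was 0.70 FPKM, for Cxcr2, the receptor of Cxcl1 and Cxcl5. Cxcr4, the receptor of Cxcl12, had means of 0.0189 FPKM in Control and 0.0270 FPKM with PTH, on 2 and 4 fragments, and Ccr2, the receptor of Ccl2 and Ccl7, was listed at 0 throughout. At these low levels Ccr7 was higher in every PTH library, at means of 0.044 FPKM in Control and 0.226 FPKM with PTH (5 and 36 fragments). Ccr10, at 0.475 and 0.212 FPKM (49 and 29 fragments), and Xcr1, at 0.174 and 0.127 FPKM (50 and 48 fragments), were lower in every PTH library. These differences were not tested.

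Of 6 genes listed as atypical receptors, a group named for binding chemokines without G protein signalling, 2 reached a mean of 1 FPKM. Ccrl1 (also Ackr4, a scavenger of Ccl19, Ccl21 and Ccl25) rose from 49.0 ± 3.47 to 72.9 ± 4.56 FPKM (SD, n = 3 in each group), a difference of 0.56 (limma, adjusted p = 0.000261). Cxcr7 (also Ackr3, which scavenges Cxcl12) went from 26.1 ± 2.24 to 22.6 ± 0.79 FPKM (SD, n = 3 in each group), a difference of -0.19 (limma, adjusted p = 0.0291) whose call was lost in 5 alternatives, without Control replicate 1 or 3, without PTH replicate 1 or 3 and with replicate number as a block. Over all alternatives its adjusted p ran from 0.000793 to 0.0889. Ccrl2, Ccbp2, Pitpnm3 and Darc were below the filter and were not tested. Ccrl2 had means of 0.22 FPKM in Control and 0.26 FPKM with PTH, and its libraries overlapped. Ccbp2 (also Ackr2, a scavenger of inflammatory CC ligands) was at 0.026 and 0.267 FPKM, on 5 and 62 fragments, and Pitpnm3 at 0.397 and 0.034 FPKM, on 172 and 17 fragments. Both separated the groups, in opposite directions, and Darc was listed at 0.

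Of proteases known to cut chemokines, 7 of 14 were tested, 5 rose and 2 fell. Over all entries tested 50.3% were called higher and 23.5% lower. The median change of the 7 was 0.46 beside 0.15 over all entries. The largest changes among these 7 were in Mmp3 at 1.12, Mmp2 at 0.73, Mmp13 at 0.62 and Mmp14 at 0.46. Adam10 and Adam17, which shed Cx3cl1 and Cxcl16, fell by 0.26 and 0.28 on the log2 scale. Under the filter and not tested, Mmp8 and Mmp1a were lower in every PTH library. Mmp8 had means of 0.881 FPKM in Control and 0.371 FPKM with PTH (136 and 76 fragments), and Mmp1a 0.0558 and 0.0154 FPKM (7 and 3 fragments). Dpp4, which inactivates Cxcl12, was at a mean of 0.0050 FPKM in Control and 0.0045 FPKM with PTH. Of the other chemokine-related genes, Mif rose by 0.60 and Cklf by 0.31.

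Among 14 tested genes that induce inflammatory chemokines or are NF-kappaB targets, 10 rose, 2 fell and 2 were not called, with a median change of 0.41 beside 0.15 over all entries tested, of which 73.8% were called and 50.3% were called higher. Il1r1, the interleukin-1 receptor, rose by 1.74, Il6 by 1.53 (from 0.061 to 2.06 FPKM, so that it passed the filter only through the PTH libraries), Nfkbiz by 1.34 and Tnfrsf1a, a receptor of tumour necrosis factor, by 1.22. Nfkbia and Tlr4 were the genes that fell. The cytokine Il1b was listed at 0 in every Control and PTH library. Tnf was listed at 0 in every library but PTH replicate 2, where it was at 0.024 FPKM on 1 fragment. Of 9 tested interferon-response genes 3 rose, 3 fell and 3 were not called (1 rose under each of the 3 rescalings), the largest changes being Isg15 at -1.17, Irf1 at 0.86, Gbp2 at -0.84 and Ifit2 at -0.24, and the median change was -0.09. Of 5 tested haematopoietic markers 2 rose (Cd14 at 1.09, Cd68 at 0.66) and 2 fell (Lyz2 at -1.20, Fcer1g at -0.50). Of 6 osteoclast markers 2 were tested, and Ctsk rose by 0.22 and Acp5 fell by 0.55. Among the 4 under the filter, Atp6v0d2 was higher and Oscar lower in every PTH library, and Calcr and Tm7sf4 were listed at 0. All 7 endothelial markers were under the filter at 0.0964 FPKM or less. Whether any of these genes has a part in the changes of the ligands was not tested.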

How the data were processed

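Total RNA was extracted with TRIzol from 3 Control and 3 PTH wells, made into libraries with an Illumina TruSeq kit and run as 6 barcoded libraries on 1 lane. The authors deposited FPKM per gene and library with lower and upper bounds; their processing notes name CASAVA 1.8, TopHat, Bowtie2, SAMtools, Cuffdiff and mm9. For the gene annotation, the strand setting and other versions nothing was found (not given in the sources used here); overlapping genes cannot be told apart. A deposited Cuffdiff comparison, with group FPKM, fold changes and p-values, was not used.

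Groups came from the sample labels. Entries were tested where mean FPKM reached 1 and no library had a HIDATA or FAIL status. The test was limma (version 3.58.1, R 4.3.3; lmFit and eBayes with trend) on log2(FPKM + 1), with Benjamini-Hochberg adjustment over all 11864 entries and a call at adjusted p below 0.05. That scale understates changes of weakly expressed genes. For status, 43 entries were left out, 38 of them with a mean of at least 1, among them Col1a1 and Col1a2. An exact permutation test of 3 against 3 libraries cannot go below p = 0.1 and was not used.

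Implied fragments were (FPKM/SE) squared, with the half-width of the deposited bounds read as 2 SE. Fragment ratios were scaled to relative depth, with exact binomial 95% intervals. A group at 0 was given a limit of 3 fragments over the group. Intervals and limits cover counting error only. Ratios of a PTH mean to such a limit take the PTH mean as exact. Coordinates of genes are mm9, 1-based, with the listed start read as 0-based. Promoter windows are from RefSeq on GRCm38.p6.

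All ligands are named, tested ones with all libraries. Of the other lists up to 4 called members with the largest change are named, with Cxcr4, Cxcr7, Ccrl1, Ccrl2, Pf4, Ppbp and Dpp4, and other genes named outside this rule were chosen after their values were seen. The members and lists were chosen with earlier results of these data known. Alternatives were another pseudocount, 2 other filters, 3 rescalings, no variance trend, replicate number as a block and leaving out each library.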

Additional observations from a re-analysis of the deposited data

How the results depend on the processing

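Of 150 values of tested ligands under 14 alternatives, 141 kept their side of the threshold, and the 9 others were lost calls of Cx3cl1. No called ligand changed direction. The change of Ccl27a, which was not called, ran from -0.02 to 0.20 and was negative under median-of-ratios rescaling. The count of ligands called was 7 with a mean of at least 5 FPKM, a filter that fewer ligands pass, 13 with no filter, and 8 after rescaling to TPM, by median-of-ratios or by quantiles, where Cx3cl1 was lost. Over all entries, 8200 to 8341 were called under these rescalings, and the split moved from 5967 higher and 2783 lower to 5144 and 3197, 4459 and 3741, and 4593 and 3620. The replicate numbers did not pair the samples, as the correlation of same-numbered deviations was -0.079, 0.0015 and -0.038, and with replicate number as a block 8 ligands and 8576 entries were called. Of 464 values of 34 named genes from the other lists, 452 kept their call, 12 lost it (Cxcr7, Ifit2, Fcer1g and Acp5) and 0 reversed. Of 336 counts called over the other lists 32 moved by over 1.5 times. The interferon-response genes that rose went from 3 to 1 without Control replicate 2 or 3 or PTH replicate 1, and the NF-kappaB list's falls from 2 to 1 without Control replicate 1 or 3 or PTH replicate 1 or 2. Depth limits the ligands under the filter, of which none had more than 43 fragments in a group.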
